A study of Mus musculus with 1507 samples.

Results

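The 2 full C1 chips of this series hold 189 of its 1507 libraries, 95 made by C1-RamDA-seq and 94 made by SMART-Seq v4 on the same instrument, and were chosen here by the method and input that their labels give. The Fluidigm C1 prepares libraries in the wells of a microfluidic chip, and 93 well positions were filled on both chips. Every well received 10 pg of purified total RNA from 5G6GR mouse ES cells, a feeder-free line kept with LIF, puromycin and blasticidin that carries an inducible Gata6 fusion. The RNA came from cells of all cell cycle phases that had not been given dexamethasone, the agent that switches the fusion on. ERCC spike-in RNAs were added to the lysis mix of each chip. Wells of a chip therefore shared a single RNA pool and are technical replicates, so that p-values over wells measure the spread between wells and not between cultures. Each method was run on 1 chip, and method and chip cannot be told apart. Sets of 4 libraries of 10 pg by each method, from a separate deep table of the same line, and 3 bulk libraries each of rRNA-depleted (rdRNA-seq) and poly(A)-selected RNA (paRNA-seq) from 1 ug are given beside the chips where they bear on a result. The C1-RamDA-seq set was made on the C1, but the SMART-Seq v4 set was made with the kit off the C1, so that in the sets method and platform cannot be told apart and the SMART-Seq v4 libraries of chip and set are not alike.

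SMART-Seq v4 starts cDNA at the poly(A) tail with an oligo-dT primer, adds a second priming site by template switching at the 5′ end, and amplifies the full-length product by PCR. An RNA without a tail has no such start, and a long RNA must be copied through before it can be amplified. RamDA-seq adds to oligo-dT a set of not-so-random primers (NSRs), hexamers from which those matching rRNA were removed, and amplifies the cDNA by repeated nicking and strand displacement during reverse transcription. The mRNAs of replication-dependent histones, with a stem-loop in place of the tail, and most small structured RNAs of the nucleus and cytoplasm are the best known RNAs of the tailless kind.

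The listed first-strand set held 408 of the 4096 possible hexamers. In the following RNAs, taken from the mouse GENCODE transcripts on mm10 and printed 5′ to 3′ in DNA letters, capitals mark the bases where a first-strand NSR can pair without a mismatch. They are shown as examples with many and with few matches: *Rmrp* was present in every C1-RamDA-seq well and *Scarna13* in all but 1, *mt-Rnr1* has few matches and rose nonetheless, and *Rny1*, with many, was found in fewer C1-RamDA-seq wells. *Rmrp*, the RNA of the RNase MRP complex, lies at chr4:43492788-43493058 on the minus strand and had 24 matches over its 271 bases.
Rmrp: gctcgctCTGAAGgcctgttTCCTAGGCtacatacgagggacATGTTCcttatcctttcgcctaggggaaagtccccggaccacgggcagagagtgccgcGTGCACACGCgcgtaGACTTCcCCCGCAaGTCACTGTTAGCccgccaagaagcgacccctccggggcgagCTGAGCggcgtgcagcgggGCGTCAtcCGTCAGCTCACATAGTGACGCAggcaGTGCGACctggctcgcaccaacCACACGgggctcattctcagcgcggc
*Scarna13*, a small Cajal body RNA, lies at chr12:105031075-105031349 on the minus strand, with 34 matches over 275 bases.
Scarna13: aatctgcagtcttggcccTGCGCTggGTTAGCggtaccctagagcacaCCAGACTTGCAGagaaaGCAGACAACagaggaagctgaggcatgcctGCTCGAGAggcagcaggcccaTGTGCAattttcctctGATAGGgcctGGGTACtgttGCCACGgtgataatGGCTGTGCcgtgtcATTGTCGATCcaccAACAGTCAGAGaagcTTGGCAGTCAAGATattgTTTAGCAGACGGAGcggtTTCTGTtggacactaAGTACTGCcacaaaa
*mt-Rnr1*, the mitochondrial 12S rRNA, lies at chrM:70-1024 on the plus strand, with 5 matches over 955 bases, of which the last 150 bases are shown.
mt-Rnr1, bases 806 to 955: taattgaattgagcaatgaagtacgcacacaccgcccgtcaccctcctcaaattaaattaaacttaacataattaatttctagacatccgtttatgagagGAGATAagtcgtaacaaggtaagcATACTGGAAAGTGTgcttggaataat
*Rny1*, a Y RNA bound by the Ro60 protein, lies at chr6:47788069-47788180 on the minus strand, with 15 matches over 112 bases.
Rny1: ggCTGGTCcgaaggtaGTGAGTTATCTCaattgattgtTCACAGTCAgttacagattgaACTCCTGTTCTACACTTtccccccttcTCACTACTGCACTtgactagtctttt
Matches covered 37.3% of the bases of *Rmrp*, 49.5% of *Scarna13* and 50.9% of *Rny1*, against 2.09% of *mt-Rnr1*. None of the 1870 bases of the 18S rRNA entry or the 4730 of the 28S rRNA entry began a match, whereas the 157 bases of 5.8S rRNA began 14. A match is a place where a listed primer can pair and is not a measured priming site.

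C1-RamDA-seq libraries held between 679774 and 725346 estimated counts (median 718051), and SMART-Seq v4 libraries between 966286 and 983558 (median 974874). ERCC spike-ins made up a median of 0.357% and 2.76% of these counts, which is not used here to compare input. The stock dilutions differed, but by the volumes in the study's methods the final dilutions in the lysis mixes were close. The cause of the unequal ERCC shares was not tested. C1-RamDA-seq wells CA04 and CG11 stood apart in total count, by over 3 interquartile ranges outside the quartiles. All 10 ES cell markers were detected in every well of both chips. They summed to 4553 to 5329 CPM by C1-RamDA-seq and 7478 to 8801 CPM by SMART-Seq v4. The 10 primitive endoderm markers summed to 1134 to 1820 CPM by C1-RamDA-seq and 283 to 674 CPM by SMART-Seq v4. *Lama1*, given below, held most of the C1-RamDA-seq sum. The 8 fibroblast markers summed to 1.58 to 87.9 CPM and 0 to 40.9 CPM, and the 5 trophectoderm markers to 0 to 34 CPM and 0 to 30.2 CPM. Counted chip by chip, 3 fibroblast markers and 1 trophectoderm marker were at 0 on each. Of the 8 fibroblast markers, 6 were seen in a well of at least 1 chip. In RNA purified from a pool, fewer cells of a type and less RNA per cell cannot be told apart.

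C1-RamDA-seq detected more genes in every well than SMART-Seq v4 did in any. After every library was thinned to 677114 counts, 14971.1 ± 51.7 genes (SD, n = 95) had an estimated count of at least 1 by C1-RamDA-seq and 11405.4 ± 62.7 (SD, n = 94) by SMART-Seq v4. The lowest C1-RamDA-seq well had 14853 genes and the highest SMART-Seq v4 well 11545. The difference of 3565.63 genes gave p = 1e-05 in a two-sided permutation test over wells, the smallest that 100000 resamples can give, and was 3566.88 genes without wells CA04 and CG11. As deposited, with the SMART-Seq v4 libraries the deeper, the means were 14934.2 and 11674.3. A higher count limit narrowed the gap, to 1113.34 genes at a count of at least 5 and to 338.793 genes at a count of at least 10. Long noncoding gene types contributed 1966.66 ± 30.9 genes per well (SD, n = 95) against 958.745 ± 23.7 (SD, n = 94), and protein-coding genes 11842.9 ± 36 against 9667.7 ± 47.4.

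**Figure D1:**
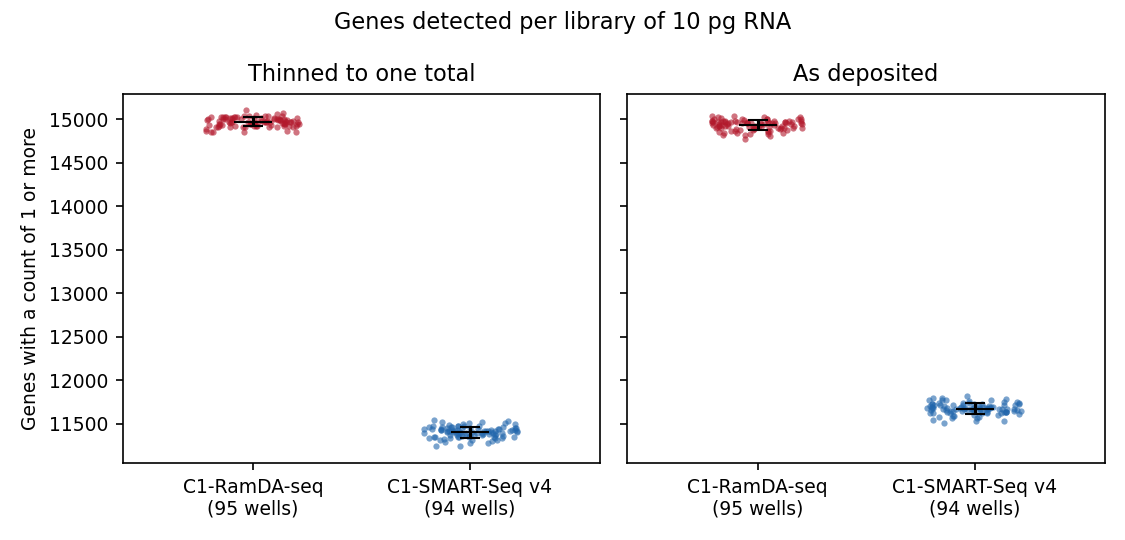
Genes with an estimated count of at least 1 in each well, after thinning to equal totals (left) and as deposited (right), with the mean ± SD in black. After thinning, the 95 C1-RamDA-seq wells lay between 14853 and 15105 genes and the 94 SMART-Seq v4 wells between 11241 and 11545.

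The gap in detection was wide among genes of moderate level. The bulk rdRNA-seq libraries, which no chip shares, gave a level for each gene. Genes at 1 to 3 CPM in bulk were detected in a median of 54.7% of C1-RamDA-seq wells and 23.4% of SMART-Seq v4 wells, and genes at 3 to 10 CPM in 89.5% and 58.5%. Between 10 and 30 CPM, 2263 of 3599 genes were seen in every C1-RamDA-seq well and 754 in every SMART-Seq v4 well. At 0.3 to 1 CPM the median shares were 24.2% and 8.51%, but the few genes seen in every well were 5 by C1-RamDA-seq and 21 by SMART-Seq v4. Over all levels, 7527 genes were found in each of the 95 C1-RamDA-seq wells and 4527 in each of the 94 SMART-Seq v4 wells. A Fisher's exact test of wells with and without the gene, with Benjamini-Hochberg adjustment over 22980 genes seen in at least 10 wells, called 53.0% of them, 48.8% found in more C1-RamDA-seq wells and 4.19% in more SMART-Seq v4 wells. The test used counts as deposited, with the SMART-Seq v4 libraries the deeper. At a count of at least 10 in these counts, 2879 genes were found in more C1-RamDA-seq wells and 3272 in more SMART-Seq v4 wells. After thinning, C1-RamDA-seq still had more genes per library at that limit, a mean of 8033.44 against 7694.65. The test per gene at that limit was not run on thinned counts.

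Examples of unequal detection ran both ways. *Plag1*, which encodes a zinc finger transcription factor, was found in 97.9% of C1-RamDA-seq wells and 12.8% of SMART-Seq v4 wells. *Zbtb33*, which encodes the methyl-DNA binding protein Kaiso, had the same shares, and *B3galt2*, a galactosyltransferase gene, was found in 94.7% and 6.38%. In the other direction, *Lsm7*, which encodes a subunit of the Lsm ring bound to U6 snRNA, was found in 18.9% of C1-RamDA-seq wells and 100% of SMART-Seq v4 wells. *Timm8a1*, a chaperone gene of the mitochondrial intermembrane space, was found in 28.4% and 100%. Of their 25-base words, 25.4% for *Lsm7* and 42.1% for *Timm8a1* also lie in other genes on the same strand. The shares were 0.611% for *Plag1*, 0.0588% for *Zbtb33* and 0.0756% for *B3galt2*. How far shared reads bear on detection of these genes was not tested.

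For levels, counts were compared with edgeR's quasi-likelihood test on TMM-normalised counts, and levels are given as TMM-normalised CPM (counts scaled to a common library total), lowest, median and highest well. Of 8929 genes that passed the filter on low counts, 84.9% passed an adjusted p of 0.05, with 44.1% higher by C1-RamDA-seq and 40.8% lower. With this many wells small differences pass, so members of gene groups are mostly counted by a second rule, a call past 2-fold by glmTreat. That rule called 34.9% of the genes, 20.7% higher and 14.2% lower in C1-RamDA-seq. Every well of 1 chip lay above every well of the other for 7.59% of the genes, 3.58% higher and 4.01% lower in C1-RamDA-seq. Scaling by library size alone moved the median log2 fold of all genes by -0.268 and RLE size factors by 0.302. With these scalings 42.2% and 63.5% of the called genes were higher in C1-RamDA-seq, against 52% with TMM. Past 2-fold the shares were 43.8% and 75.1%, against 59.4%.

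RNA classes took unequal shares of the counts on the 2 chips. The shares here are percents of all counts without ERCC, unscaled, and 26 classes were compared by two-sided permutation tests over wells, with Benjamini-Hochberg adjustment. Mitochondrial rRNAs took 4.39% ± 0.129 of C1-RamDA-seq counts (SD, n = 95) and 0.166% ± 0.015 of SMART-Seq v4 counts (SD, n = 94), 26.4-fold apart. The type misc_RNA, which holds 7SK and 7SL, took 0.682% ± 0.0218 and 0.00938% ± 0.00182, 72.7-fold apart. Genes of the ribozyme type, which holds *Rmrp* and *Rpph1*, took 0.0297% and 0.000222%. Genes annotated as miRNA were 11.4-fold higher, snRNA genes 9.73-fold higher and snoRNA genes 2.51-fold higher in share by C1-RamDA-seq. Each of these differences gave an adjusted permutation p of 1.083e-05, and the wells of the 2 chips did not overlap.

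Going the other way, the 13 mitochondrial mRNAs took 1.48% ± 0.0779 of C1-RamDA-seq counts and 3.01% ± 0.145 of SMART-Seq v4 counts. The 92 nuclear genes of oxidative phosphorylation took 0.827% ± 0.0179 and 2.18% ± 0.0553. Wells did not overlap for either class. Retained-intron transcripts, by annotation, took 5.76% ± 0.0733 and 4.44% ± 0.077. Shares of lincRNA genes, 1.20% ± 0.026 and 1.23% ± 0.0381, overlapped between the chips, as did those of pseudogenes and of replication-dependent histones, 0.112% ± 0.00499 and 0.121% ± 0.00885. The lincRNA difference, C1-RamDA-seq minus SMART-Seq v4, was -0.0229 percentage points over all counts and 0.124 when 6 genes of rRNA sequence were left out of the total. Beside them, the rdRNA-seq bulk libraries had 5.98% misc_RNA, 3.22% ribozyme RNAs and 1.99% replication-dependent histones, above both chips. The paRNA-seq bulk libraries had 0.00667%, 0.000539% and 0.00559%.

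**Figure D2:**
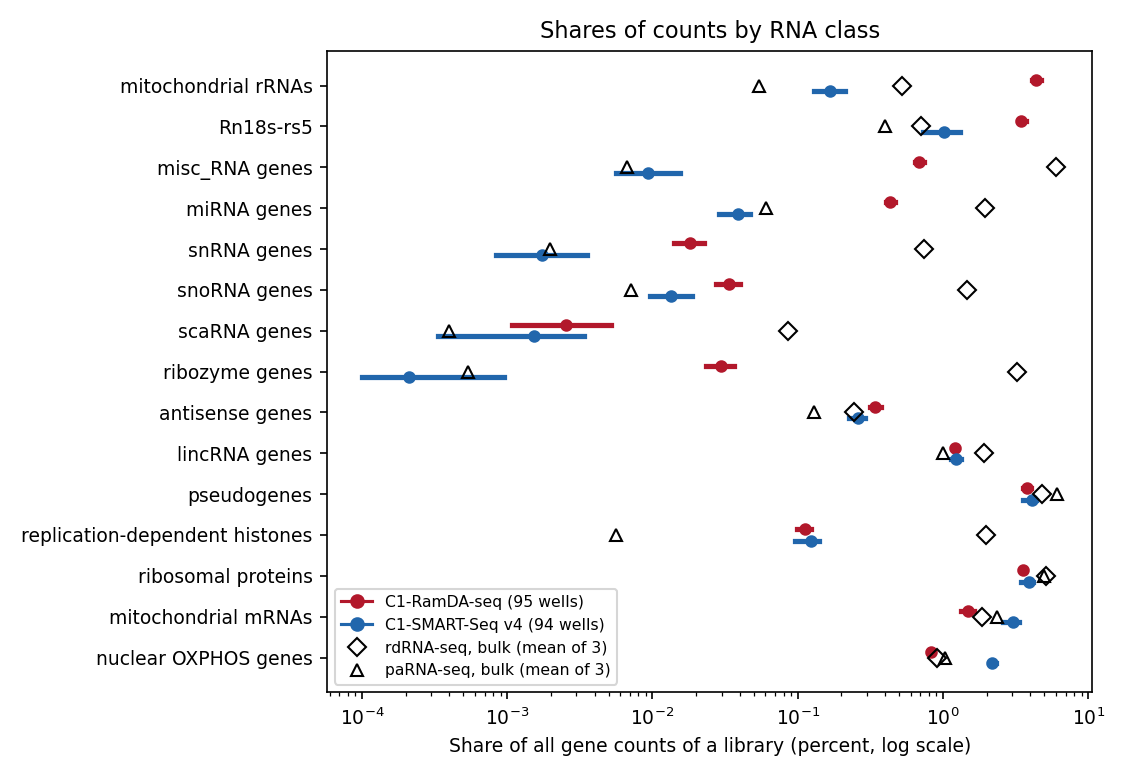
Share of each library's counts by RNA class on a log axis, in percent without ERCC. Dots are medians over wells and bars run from the lowest to the highest well; diamonds are the rdRNA-seq and triangles the paRNA-seq mean of 3 bulk libraries, and a lowest value of 0 is drawn at the left edge. Mitochondrial rRNAs, misc_RNA and ribozyme genes lie to the right in C1-RamDA-seq, while mitochondrial mRNAs and nuclear OXPHOS genes lie to the right in SMART-Seq v4.

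Several abundant small structured RNAs without a tail were far higher by C1-RamDA-seq. *Rn7sk*, the 7SK RNA that holds back the elongation factor P-TEFb, was at 1453, 1589 and 1800 CPM by C1-RamDA-seq and at 0, 0.494 and 7.91 CPM by SMART-Seq v4. Its log2 fold was 9.73 ± 0.086 (SE), with an adjusted p of 2.78e-177 by edgeR's quasi-likelihood test. *Rn7s1*, a gene of the signal recognition particle RNA, was at 2680, 2934 and 3299 CPM against 9.08, 23.4 and 41.4 CPM, a log2 fold of 7.0 ± 0.039. Both stood above every SMART-Seq v4 well, and *Rn7s1* shares its whole sequence with *Rn7s2*, so that their counts are a split of 1 signal.

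*Rmrp* was at 113, 155 and 210 CPM by C1-RamDA-seq, and SMART-Seq v4 gave 4 counts in all, in 4 of 94 wells. Its lowest C1-RamDA-seq well lay far above the highest SMART-Seq v4 well, at 0.996 CPM. The fitted log2 fold of 9.66 ± 0.075 depends on the prior count at such low counts. *Rpph1*, the RNA of RNase P, was at 128, 174 and 216 CPM against 0, 0.994 and 8.88 CPM, a log2 fold of 6.42 ± 0.113. Of the 25-base words of *Rpph1*, 70.8% also lie in *Ccnb1ip1*, and the sum of both was at a median of 193 CPM against 33.7 CPM. On the opposite strand, 38.9% of the words of *Rmrp* lie in *Ccdc107*, and the counts did not use strand. Their sum was at 162 and 17.3 CPM, 3.16 apart as a log2 ratio of means.

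Of the 20 listed small RNAs without a tail, 5 passed the filter, and 5 of 5 were called past 2-fold higher. The filter lets in RNAs that are high on 1 chip alone, so the detection test, in which 15 could be tested, is the broader view: 8 were found in more C1-RamDA-seq wells and 2 in fewer, against 48.8% and 4.19% of all genes. The share found in more wells thus lay near that of all genes. *Scarna13* was found in 98.9% of C1-RamDA-seq wells and 7.45% of SMART-Seq v4 wells, and *Rny3*, another Y RNA, in 54.7% and 13.8%. *Rny1* was found in 11.6% and 52.1%, and *Snord13*, a snoRNA that guides acetylation of 18S rRNA, in 25.3% and 59.6%. The shares for *Rny1* and *Snord13* thus ran against the group, with primer matches over 50.9% and 33.7% of their bases. *Terc*, the telomerase RNA, was found in 17.9% and 21.3% of wells, a difference that did not pass (adjusted p = 0.776 by Fisher's exact test). In bulk rdRNA-seq *Terc* was at 129 to 169 CPM.

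Most replication-dependent histone genes were found in more C1-RamDA-seq wells, while some H2A genes were higher by SMART-Seq v4. Of 67 genes that could be tested for detection among the 70 listed, 54 were found in more C1-RamDA-seq wells and 3 in fewer, against 48.8% and 4.19% of all genes. The median gene was found in 83.2% of C1-RamDA-seq wells and 27.7% of SMART-Seq v4 wells. For levels 19 passed the filter, of which 15 were called past 2-fold higher and 4 lower, against 20.7% and 14.2% of all genes. The linker histone gene *Hist1h1d* was at 99.6, 151 and 190 CPM against 0, 0.988 and 22.2 CPM, a log2 fold of 5.82 ± 0.153. *Hist1h1b*, another linker histone gene, was at 135, 184 and 234 CPM against 0, 4 and 25.5 CPM. Neither overlapped between the chips. *Hist1h2bn* was at 6.39, 46.3 and 92.5 CPM against 0, 0 and 5.03 CPM, and shares 77.3% of its 25-base words with *Hist1h2bk*. The sum of both was at a median of 92.5 CPM against 3.17 CPM.

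Of the 4 histone genes called lower, *Hist1h2aj*, *Hist1h2ap* and *Hist1h2ae* encode H2A and *Hist1h3i* encodes H3. *Hist1h2aj* was at 0, 0 and 17.7 CPM by C1-RamDA-seq and 217, 330 and 412 CPM by SMART-Seq v4, and *Hist1h2ap* at 0.0255, 38.5 and 80.1 CPM against 481, 624 and 715 CPM. All SMART-Seq v4 wells stood above all C1-RamDA-seq wells for both. *Hist1h2aj* shares 93.6% of its words with *Hist1h2ai*, yet the sum of *Hist1h2aj*, *Hist1h2ai*, *Hist1h2ap* and *Hist1h2ao* kept the direction, at medians of 41.6 and 962 CPM. *Hist1h4d* was at 37.5, 65.5 and 97.8 CPM against 7.66, 24.8 and 51.9 CPM, overlapping, with a log2 fold of 1.37.

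Nuclear and mitochondrial rRNA sequence was higher by C1-RamDA-seq, although the primers were chosen to miss it. *mt-Rnr1* was at 30170, 32400 and 35210 CPM against 102, 179 and 308 CPM, a log2 fold of 7.45 ± 0.035 with an adjusted p of 5.45e-228 by edgeR's quasi-likelihood test. *mt-Rnr2*, the 16S rRNA, was at 15610, 17510 and 20730 CPM against 1056, 1366 and 1749 CPM, a log2 fold of 3.68 ± 0.017. No well of either chip overlapped for these RNAs, and no 25-base word of *mt-Rnr1* lies in another gene. *Lars2*, a nuclear gene for the mitochondrial leucyl-tRNA synthetase and not an rRNA entry, was at 13120, 13840 and 14610 CPM against 1017, 1384 and 1759 CPM. On the same strand, 1.55% of its 25-base words lie in other genes, and the source of its counts was not tested.

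*Rn18s-rs5*, an annotated copy of 18S rRNA, was at 37020, 39350 and 42880 CPM against 6841, 9544 and 12360 CPM, a log2 fold of 2.04 ± 0.023. *Gm26917*, a lincRNA entry counted here among the genes of rRNA sequence, was at 46250, 50020 and 53810 CPM against 12020, 14250 and 15760 CPM. Every C1-RamDA-seq well lay above every SMART-Seq v4 well for both entries. *AY036118* was at 7107, 8234 and 9145 CPM by C1-RamDA-seq and at 0 in all 94 SMART-Seq v4 wells. Of its 20-base words, 86% match 18S rRNA on the opposite strand, and its 923 bases hold 78 primer matches, against 2 on the reverse complement. It also shares all of its 25-base words with *Gm42418* on the opposite strand, which the counting could not tell apart, so the counts of either entry are a split of their sum. *Gm42418* alone was at 861, 1071 and 1302 CPM against 132, 224 and 344 CPM. The sum of both entries was at 8218, 9268 and 10200 CPM by C1-RamDA-seq and at the values of *Gm42418* by SMART-Seq v4, a log2 ratio of means of 5.35.

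Mitochondrial mRNAs, which carry short tails, were split. Of 13, all of which passed the filter, 1 was called past 2-fold higher in C1-RamDA-seq and 4 lower, against 20.7% and 14.2% of all genes. *mt-Nd5*, a subunit gene of complex I, was at 1152, 1333 and 1528 CPM against 355, 608 and 863 CPM, and *mt-Co1*, the catalytic subunit gene of complex IV, at 5914, 6315 and 6966 CPM against 4331, 5055 and 5749 CPM. C1-RamDA-seq wells stood above all SMART-Seq v4 wells for both, although the log2 fold of *mt-Co1* was only 0.32 ± 0.011. *mt-Atp8*, a short ATP synthase gene, was at 64.8, 93.7 and 139 CPM against 655, 817 and 962 CPM, a log2 fold of -3.12 ± 0.025. *mt-Cytb*, the complex III subunit gene, was at 821, 950 and 1063 CPM against 2760, 3236 and 3984 CPM. *mt-Atp8* and *mt-Cytb* were lower in every C1-RamDA-seq well.

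Values of *mt-Co2* and *mt-Co3* depend on nuclear copies. *mt-Co2* alone was at 10, 791 and 2048 CPM against 1857, 2833 and 3561 CPM, but summed with its copy *Gm28661* it was at a median of 4221 CPM by C1-RamDA-seq and 2966 CPM by SMART-Seq v4, the other direction. *mt-Co3* with *Gm28437* stayed lower, at 2744 and 8805 CPM. Of the 22 mitochondrial tRNA genes, 3 passed the filter, and by detection 2 were found in more and 8 in fewer C1-RamDA-seq wells, against 48.8% and 4.19% of all genes. *mt-Tm*, the methionine tRNA, was found in 20% of C1-RamDA-seq wells and in 100% of SMART-Seq v4 wells, with a log2 fold of -5.75.

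Long noncoding RNAs that passed the filter were mostly higher by C1-RamDA-seq. Of 41 listed, 39 were in the gene models and 21 passed the filter. By glmTreat 17 were called past 2-fold higher and 0 lower, against 20.7% and 14.2% of all genes. The plain quasi-likelihood test called 20 higher and 1 lower, against 44.1% and 40.8%. By detection, 21 of 38 were found in more C1-RamDA-seq wells and 1 in fewer, against 48.8% and 4.19% of all genes. The share found in more wells thus lay near that of all genes. *Malat1*, the abundant RNA of nuclear speckles, was at 1696, 1951 and 2362 CPM against 560, 731 and 882 CPM, and *Neat1*, the scaffold of paraspeckles, at 219, 430 and 689 CPM against 10, 62.5 and 229 CPM. *Malat1* wells did not overlap between the chips and those of *Neat1* did, by a narrow margin. Their log2 folds were 1.41 ± 0.017 and 2.63 ± 0.09.

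*Kcnq1ot1*, the imprinted antisense RNA that silences its domain in cis, was at 154, 339 and 525 CPM against 15, 65.1 and 184 CPM. *Rian*, from the Dlk1-Dio3 imprinted domain, was at 292, 428 and 554 CPM against 0, 21.6 and 146 CPM, a log2 fold of 4.11 ± 0.116, and *Mirg* of the same domain at 30.7, 64.2 and 109 CPM against 0, 1.98 and 19.7 CPM. *Rian* and *Mirg* were above all SMART-Seq v4 wells. *Lncenc1*, an ES cell lincRNA, was at 667, 844 and 1028 CPM against 34.4, 101 and 188 CPM. *Firre*, which helps to organise chromatin in the nucleus, rose with a log2 fold of 3.48 and *Tug1* with 1.74.

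Host genes of snoRNAs are spliced, tailed RNAs whose introns hold the snoRNAs. Of 13 in the gene models, 9 passed the filter. By glmTreat 3 were called past 2-fold higher and 0 lower, against 20.7% and 14.2% of all genes. The plain test called 6 higher and 2 lower, against 44.1% and 40.8%. By detection 3 of 13 were found in more C1-RamDA-seq wells and 1 in fewer, against 48.8% and 4.19% of all genes. *Snhg12* had a log2 fold of 2.59 and *Snhg1* of 1.67. *Gas5*, which the cell degrades when translation is active, was at 106, 150 and 228 CPM against 104, 211 and 319 CPM, a log2 fold of -0.44 with overlapping wells. *Snhg9* was found in 15.8% of C1-RamDA-seq wells and 92.6% of SMART-Seq v4 wells.

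Within some of these genes the isoform that carried the counts differed between the chips. The full-length *Malat1-001* (6983 bases) was at a median of 1783 CPM by C1-RamDA-seq and 89.3 CPM by SMART-Seq v4, and the short *Malat1-003* (485 bases) at 9.8 and 642 CPM. For each of these transcripts the wells did not overlap, so that the gene-level difference of *Malat1* was a balance of opposite ones. The long *Neat1-001* (20771 bases) was at medians of 378 and 31.9 CPM, and the short *Neat1-002* at 26.6 and 23 CPM. *Mdn1-001* (17970 bases), which encodes a giant AAA ATPase of ribosome assembly, was at 763 and 24.4 CPM. *Esrrb-006*, an isoform of the orphan nuclear receptor gene, was at 115 CPM by C1-RamDA-seq and at 0 in all 94 SMART-Seq v4 wells. Estimated counts of isoforms rest on how reads were shared out between overlapping transcripts.

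Genes of long mRNAs were higher by C1-RamDA-seq with few exceptions. Of 50 listed, 49 were in the gene models and all 49 passed the filter, 39 were called past 2-fold higher and 0 lower by glmTreat, against 20.7% and 14.2% of all genes. The plain test called 47 higher and 1 lower, against 44.1% and 40.8% of all genes. The median log2 fold was 2.29, against 0.06 over all genes. For 22 of the list every C1-RamDA-seq well lay above every SMART-Seq v4 well, against 3.58% of all genes. *Ubr4*, a giant E3 ubiquitin ligase gene, was at 917, 1420 and 2238 CPM against 13.8, 115 and 308 CPM, a log2 fold of 3.65 ± 0.077. *Huwe1*, another E3 ligase gene, was at 1335, 1741 and 2301 CPM against 63.3, 207 and 458 CPM, a log2 fold of 2.98 ± 0.061. *Vps13d*, which encodes a lipid transfer protein, was at 70.6, 242 and 411 CPM against 0, 4.43 and 30.7 CPM, a log2 fold of 4.97 ± 0.14. For none of these genes did the chips overlap.

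*Dync1h1*, the heavy chain gene of cytoplasmic dynein, rose with a log2 fold of 3.80, *Mdn1* with 3.40 and *Fasn*, the fatty acid synthase gene, with 2.32. The exceptions were *Tpr* and *Cenpe*. *Tpr*, a nuclear pore basket gene, was at 134, 236 and 323 CPM against 116, 232 and 365 CPM, a log2 fold of 0.01 ± 0.044 (edgeR adjusted p = 0.778). *Cenpe*, a kinetochore motor gene, was at 31.9, 67.8 and 122 CPM against 20.8, 98.5 and 194 CPM, a log2 fold of -0.58. For *Tpr* the sign turned under library-size scaling.

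**Figure D3:**
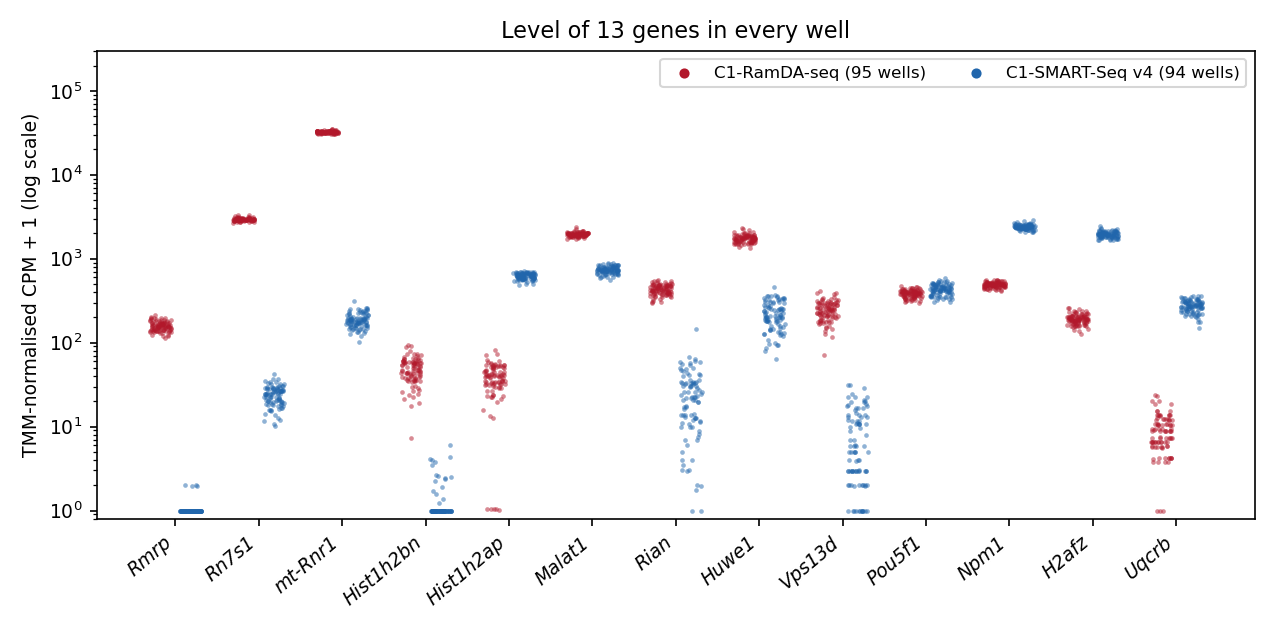
TMM-normalised CPM plus 1 on a log axis in each well for 13 genes, with each dot a well. *Rmrp*, *Rn7s1*, *mt-Rnr1*, *Huwe1* and *Vps13d* lie higher in C1-RamDA-seq, *Hist1h2ap*, *Npm1*, *H2afz* and *Uqcrb* lie higher in SMART-Seq v4, and *Pou5f1* overlaps.

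Across protein-coding genes the log2 fold rose with the length of the most abundant transcript. That transcript was the 1 with the most estimated counts over these same chips, so the length is not independent of the values compared. The 135 genes of 200 to 500 bases had a median log2 fold of -1.18, with 12.6% called past 2-fold higher and 51.9% lower. The 1794 genes of 1000 to 2000 bases had a median of -0.67, and the 3395 genes of 2000 to 4000 bases a median of 0.02. Among the 397 genes longer than 8000 bases the median was 1.98, with 75.3% called past 2-fold higher and 0.252% lower. Spearman's rho between length and log2 fold was 0.652 across 8447 genes, which share the same wells and are not independent replicates. Within 4000 to 8000 bases, the 125 genes under 40% GC had a median of 0.26 and the 39 genes of at least 60% GC a median of 1.87. Among protein-coding genes of 1000 to 2000 bases with a matched sequence, the median was -1.20 at 5 to 6 primer matches per 100 bases. It was -0.50 at 8 to 9 and -0.52 at 9 to 20. Over all lengths these bins had medians of -0.765, 0.229 and -0.073.

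**Figure D4:**
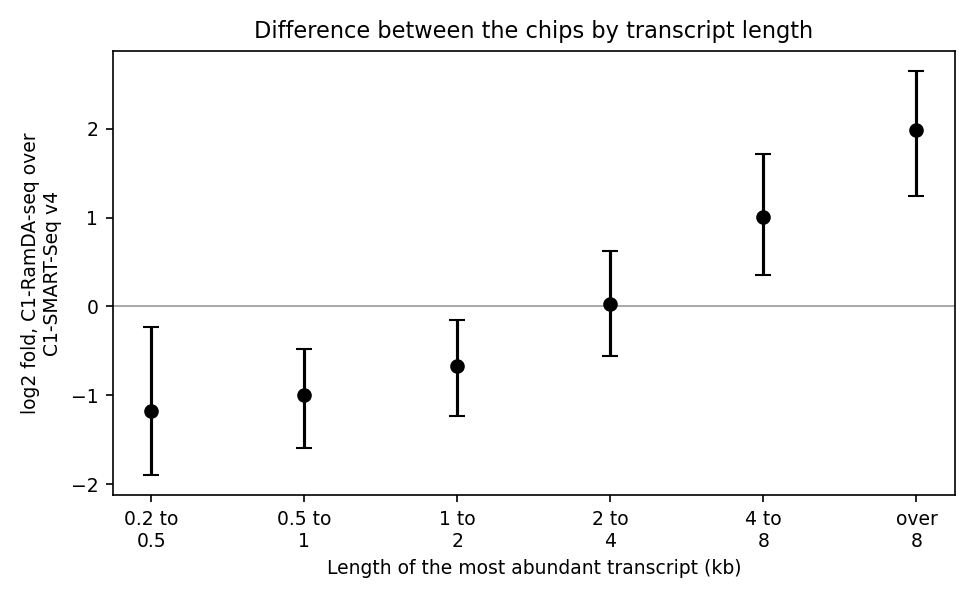
Log2 fold, C1-RamDA-seq over SMART-Seq v4, of protein-coding genes by the length of their most abundant transcript in bases, with the median as a point and the quartiles as bars. The medians climb from -1.18 in the shortest class to 1.98 in the longest and cross 0 at 2000 to 4000 bases.

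Several groups of genes were lower by C1-RamDA-seq. Nuclear genes of oxidative phosphorylation encode subunits of its complexes. Of 92 listed, 84 passed the filter. By glmTreat 0 were called past 2-fold higher and 54 lower, against 20.7% and 14.2% of all genes. The plain test called 2 higher and 80 lower, against 44.1% and 40.8%. All SMART-Seq v4 wells were above all C1-RamDA-seq wells for 29 of the 84, against 4.01% of all genes. *Uqcrb*, a complex III subunit gene, was at 0, 7.92 and 22.6 CPM against 149, 273 and 360 CPM, a log2 fold of -5.05 ± 0.074. *Cox7a2l*, which encodes a factor of respiratory supercomplexes, was 1 of the 2 called higher, at 76.9, 133 and 217 CPM against 41.3, 93.2 and 172 CPM.

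Replication-independent histone genes, whose mRNAs carry tails, went the same way: of 11 listed, 9 passed the filter, and 0 were called past 2-fold higher and 4 lower, against 20.7% and 14.2% of all genes. *H2afz*, the H2A.Z variant gene, was at 126, 190 and 260 CPM against 1665, 1944 and 2439 CPM, a log2 fold of -3.36 ± 0.025. *H3f3b*, an H3.3 gene, was at 221, 275 and 365 CPM against 971, 1221 and 1592 CPM. For both genes every SMART-Seq v4 well lay above every C1-RamDA-seq well.

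Genes of the nucleolus and of splicing were mixed. Of 18 nucleolar genes, all tested, 5 were called past 2-fold higher and 7 lower, and of 24 splicing factor genes, all tested, 1 higher and 7 lower, against 20.7% and 14.2% of all genes. *Npm1*, which encodes the nucleolar chaperone nucleophosmin, was at 416, 489 and 558 CPM against 2088, 2401 and 2908 CPM, a log2 fold of -2.30. *Nhp2*, of the box H/ACA particles, had a log2 fold of -2.61, and *Utp20*, a long mRNA of small subunit assembly, 1.78. *Tra2a*, a splicing regulator gene, was at 136, 196 and 269 CPM against 7.89, 40.7 and 81 CPM, while the SR protein gene *Srsf7* had a log2 fold of -1.91. *Npm1* and *Tra2a* did not overlap between the chips.

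Of 84 ribosomal protein genes, 82 passed the filter, with 8 called past 2-fold higher and 11 lower, against 20.7% and 14.2% of all genes. *Rpl10a* was at 557, 692 and 855 CPM against 86.1, 159 and 241 CPM, with its pseudogene *Rpl10a-ps1* the medians were 1403 and 286 CPM, and *Rps27l* had a log2 fold of -1.97. The direction of the list's median depended on the scaling, at -0.16 with TMM and between -0.43 and 0.14 over the scalings. *Rps12* was at 445, 879 and 1201 CPM by C1-RamDA-seq and at 0, 0 and 55.3 CPM by SMART-Seq v4. *Rps12l1*, which was summed with it, kept a median of 157 CPM by SMART-Seq v4. The sum of *Rps12* and *Rps12l1* was at medians of 2172 and 157 CPM, a log2 ratio of means of 3.78. The gene most alike to *Rps12* on the same strand was *Rps12-ps3*, which holds 23.1% of its words. The sum of *Rps12* and *Rps12-ps3* was at medians of 1362 and 92.61 CPM, a log2 ratio of means of 3.855.

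Pluripotency genes moved in both directions. Of 30 listed, 29 passed the filter, with 8 called past 2-fold higher and 3 lower, against 20.7% and 14.2% of all genes. *Lin28a*, the regulator of let-7 processing, was at 373, 507 and 698 CPM against 1.97, 28.6 and 77.6 CPM, a log2 fold of 4.03 ± 0.085. *Esrrb* was at 734, 916 and 1135 CPM against 21.4, 94.3 and 176 CPM, a log2 fold of 3.26, and *Trim28*, the KAP1 corepressor gene, at 2801, 3223 and 3550 CPM against 619, 838 and 1029 CPM. None of these overlapped between the chips. *Dppa5a*, a short ES cell mRNA, was at 945, 1068 and 1237 CPM against 3837, 4382 and 4850 CPM, a log2 fold of -2.03 ± 0.011, and stood apart the other way.

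The core factors lay between these extremes. *Pou5f1*, the Oct3/4 gene, was at 299, 386 and 468 CPM against 305, 431 and 581 CPM, a log2 fold of -0.17 ± 0.026 that turned positive with RLE size factors. *Sox2* was at 211, 291 and 363 CPM against 135, 223 and 324 CPM, and *Nanog* at 287, 415 and 510 CPM against 315, 553 and 728 CPM. Wells of all 3 genes overlapped between the chips, with log2 folds of 0.38 for *Sox2* and -0.40 for *Nanog*. *Tfcp2l1*, another naive ES cell factor, had a log2 fold of 1.78.

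Few primitive endoderm genes passed the filter. Of 20 listed, 7 passed the filter. By glmTreat 4 were called past 2-fold higher and 0 lower, against 20.7% and 14.2% of all genes. The plain test called 6 higher and 1 lower, against 44.1% and 40.8%. By detection, which does not depend on that filter, 7 of 16 were found in more C1-RamDA-seq wells and 0 in fewer, against 48.8% and 4.19% of all genes. *Lama1*, a long basement membrane mRNA, was at 779, 1209 and 1524 CPM against 81.3, 216 and 409 CPM, with wells apart, and *Lamc1* had a log2 fold of 2.18. *Gata6*, of which the line carries a fusion transgene, was at 146, 198 and 257 CPM against 74.5, 151 and 228 CPM, a log2 fold of 0.37 with overlapping wells. The counts do not separate transgene from locus.

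Housekeeping genes did not hold a common level. Of 20, all tested, 6 were called past 2-fold higher and 2 lower, against 20.7% and 14.2% of all genes, and their median sign turned with the scaling. *Actb* was at 3652, 4063 and 4509 CPM against 670, 880 and 1086 CPM, a log2 fold of 2.20 ± 0.016, and *Ppia*, the cyclophilin A gene, at 473, 594 and 724 CPM against 2277, 2658 and 3029 CPM, a log2 fold of -2.15. Each stood fully apart, in opposite directions. *Gapdh* was at 2375, 3158 and 3847 CPM against 2807, 3246 and 3699 CPM, a log2 fold of -0.04 (edgeR adjusted p = 0.0106) that turned positive with RLE size factors. *Polr2a*, the long mRNA of the largest RNA polymerase II subunit, had a log2 fold of 1.98. Among 17 glycolysis genes, 16 were tested, and 1 was called past 2-fold higher and 3 lower, against the same shares of all genes. *Hk2* had a log2 fold of 2.70 and *Eno1* of -1.21. *Pgk1* was at 27.9, 207 and 426 CPM against 380, 597 and 828 CPM, and with its copy *Pgk1-rs7* the medians were 357 and 615 CPM.

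C1-RamDA-seq wells resembled each other more closely. Pearson's r between a library and the mean of the others of its chip, on log10(count + 1) over the tested genes, was 0.92539 ± 0.00197 (SD, n = 95) by C1-RamDA-seq and 0.83563 ± 0.0034 (SD, n = 94) by SMART-Seq v4. With Spearman's rho the means were 0.92447 and 0.87836, so that the difference fell from 0.0898 to 0.0461. A two-sided permutation test over wells gave p = 1e-05, the smallest it can give, although wells of a chip are not fully independent in this measure. The squared coefficient of variation (CV2) over wells fell with the mean count on both chips and was lower by C1-RamDA-seq in 7 of 7 bins of mean count. At log10 mean counts of 1 to 1.5 its median was 0.193 by C1-RamDA-seq and 0.661 by SMART-Seq v4, and at 2 to 2.5 it was 0.0282 and 0.0819. Of 2183 protein-coding genes with a mean of at least 50 counts on both chips, 92.3% varied less by C1-RamDA-seq, and the median ratio was 2.42. ERCC RNAs with means of 1 to 10 counts had medians of 0.568 and 2.25, those of 10 to 100 counts 0.0504 and 0.432, and those of at least 100 counts 0.00704 and 0.0125.

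The gain was unequal between gene groups. Of all 7439 tested genes with a mean of at least 10 counts on both chips, 6602 varied less by C1-RamDA-seq, with median CV2 of 0.101 and 0.232. By the same limit, 47 of 47 long mRNAs varied less by C1-RamDA-seq, with medians of 0.0497 and 0.288. Of 73 nuclear genes of oxidative phosphorylation, 30 varied less by C1-RamDA-seq, with medians of 0.044 and 0.038. *Lars2* had a CV2 27.6 times as high by SMART-Seq v4 and *Mdn1* 14.7 times. The genes with the opposite ratio included *mt-Co2*, *mt-Co3* and *Pgk1*, which share reads with copies.

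**Figure D5:**
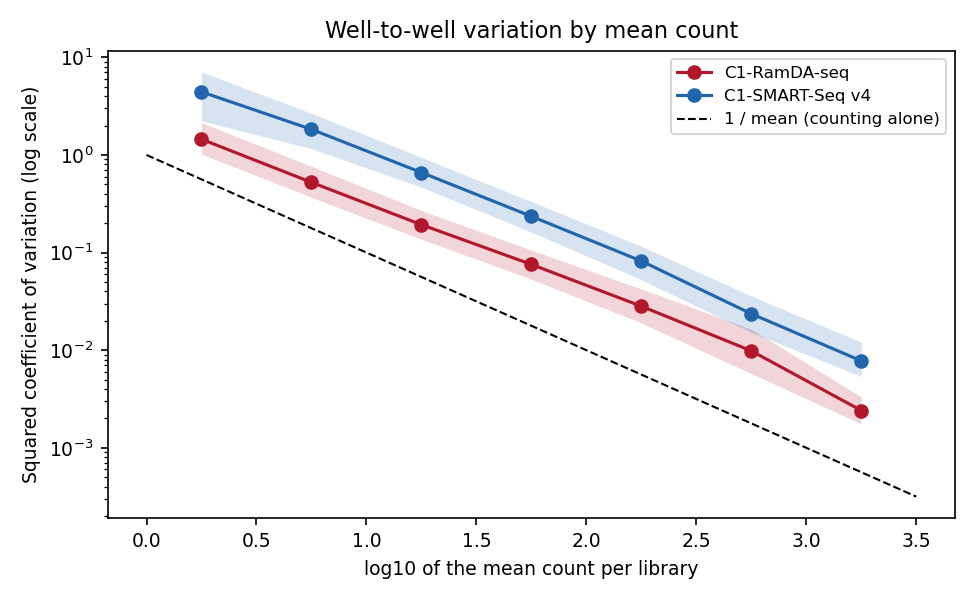
Median CV2 of counts scaled to equal totals, with quartiles, in bins of log10 mean count, for both chips on a log axis. The dashed line is 1 over the mean, the level of counting error alone, and the C1-RamDA-seq medians lie under the SMART-Seq v4 medians in 7 of 7 bins.

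The genes most strongly lower in C1-RamDA-seq included copies of abundant genes, and 6 entries were each summed with an abundant gene. *Eif4a-ps4* was at 0 in all C1-RamDA-seq wells and at 106, 219 and 344 CPM by SMART-Seq v4. It shares 97.9% of its 25-base words with *Eif4a1*, and the sum of both was at 1110 and 1024 CPM, a log2 ratio of 0.10. *Gm10052* was at 0 against a median of 59.1 CPM and shares 100% of its words with *Hnrnpa1*, with sums of 984 and 596 CPM. *Gm10259* was at 0 against 85.3 CPM, and its sum with *Ppia* had a log2 ratio of -2.20. The gene most alike to *Gm10259* was *Gm10184*, with 98.4% of its words, and the share held by *Ppia* is not given. The sums of *Npm1* with *Gm14681*, *mt-Atp6* with *Gm10925* and *Hnrnpu* with *Gm28062* had log2 ratios of -2.34, -1.42 and -0.55. Words of *Gm28062* were not counted, so its likeness to *Hnrnpu* was not tested. Of the 6 sums, 4 were thus lower in C1-RamDA-seq and 2, those of *Eif4a1* and *Hnrnpa1*, were not.

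A small group of genes was present in every C1-RamDA-seq well though nearly missing from the bulk libraries. *Il6*, an interleukin gene, was at 20.5, 46.1 and 72.1 CPM by C1-RamDA-seq, at 0, 0 and 10.8 CPM by SMART-Seq v4, and at 0 to 0.27 CPM in rdRNA-seq. *Hprt*, a purine salvage gene, was at 14.3, 26.8 and 50.8 CPM against 0, 0 and 13.8 CPM, with 0 to 0.541 CPM in rdRNA-seq. *Ins2*, an insulin gene, was at 8.26, 22.2 and 39.6 CPM against 0, 0 and 1.97 CPM, with 0 in rdRNA-seq, and *Tnf*, a cytokine gene, at 4.78, 17.6 and 36.3 CPM against 0, 0 and 0.998 CPM. No 25-base word of *Il6* or *Hprt* lies in another gene. The cause of these counts was not tested. *Hprt* is in the housekeeping list above, where it is 1 of the 6 called higher.

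The sets of 4 libraries, which are other libraries than the wells of the chips and of which the SMART-Seq v4 set was not made on the C1, gave the same direction for most genes. In these, 19.9% of 12328 genes were called, 10.9% higher and 8.98% lower in C1-RamDA-seq, and past 2-fold 7.36% were higher and 3.39% lower in C1-RamDA-seq. Of 1844 genes called past 2-fold higher on the chips and tested in both, 356 were called higher in the sets and 1 lower, and 96.3% had a higher fitted level, against 52.8% of all genes. Of 1256 called lower on the chips, 345 were called lower and 1 higher, and 97.6% had a lower fitted level, against 47.2%. The genes called in both were 19.3% of the chips' higher calls and 74.3% of the sets' 479.

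*Rmrp* was at 393, 394, 401 and 503 CPM in the C1-RamDA-seq set and at 0, 0, 0 and 0.303 CPM in the SMART-Seq v4 set. *Huwe1* was at 1170, 1440, 1490 and 1560 CPM against 73.4, 111, 136 and 195 CPM, and *Uqcrb* at 5.49, 8.05, 8.39 and 11 CPM against 201, 213, 221 and 283 CPM. These sets did not overlap, as on the chips. *mt-Rnr1* was at 8740, 10800, 11600 and 12400 CPM against 408, 531, 553 and 581 CPM, a log2 fold of 4.39 where the chips gave 7.45. *Il6* was at 48.3, 53.5, 56.8 and 72 CPM against 0 in all 4 libraries. In the long mRNA list 16 of 49 were called past 2-fold higher and 0 lower, and in the oxidative phosphorylation list 0 of 87 higher and 29 lower. Of the 58 histone genes tested, 20 were called past 2-fold higher and 3 lower. These counts stand against 7.36% higher and 3.39% lower of all genes in the sets. *Hist1h4d* had a log2 fold of -0.20 in the sets where the chips gave 1.37. *mt-Co1* likewise had -0.29 in the sets where the chips gave 0.32, and whether either difference lies beyond error was not tested, nor was the part of the platform.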

How the data were processed

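Libraries were prepared with Nextera XT and read from a single end, per the labels and the study's methods. The authors deposited estimated counts per transcript, made with Sailfish without strand on GENCODE vM9 transcripts plus ERCC sequences, with no normalization; how each library was brought to its depth is not given in the sources used here. Here counts were summed per gene name over 47517 genes, the 92 ERCC rows were left out, and sums were rounded to whole numbers. The tables also held 8 columns that belong to no sample used here, and these were not used.

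Groups came from the labels. Genes passed edgeR's filterByExpr, were scaled by TMM and tested with glmQLFit and glmQLFTest, and with glmTreat past 2-fold, all with Benjamini-Hochberg adjustment at 0.05 (edgeR 4.0.16, limma 3.58.1 and DESeq2 1.42.0 in R 4.3.3). Detection was tested with Fisher's exact test over wells and per-library measures by permutation of wells (100000 resamples, two-sided; Python 3.11.15, scipy 1.17.1). On simulated counts of 8482 genes for the full chips, 83% of 1.5-fold changes, 100% of 4-fold changes and 0.109% of unchanged genes were called. These counts were drawn from the fitted model, with independent wells and 1 dispersion per gene for both chips. The real chips differed in CV2, so these rates hold for the model and not for the chips. CV2 was computed on counts scaled to equal totals. Primer matches and 25-base words were counted on GENCODE vM21 transcripts of the same identity and length as in vM9, found for 7158 of 8929 tested genes. Counts rest on reads without molecular identifiers, so counting error does not include amplification, and p-values over wells do not cover a second chip or RNA pool.

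The chips, the gene lists and the tests were chosen with earlier results of these data known. Genes were named when they belonged to a list or were named by the study, and when they were among the 10 with the largest fold in each direction past 2-fold with a mean of at least 20 counts in the higher chip and detection in at least 90% of its wells, the 5 with the largest difference in detection, or the 5 with the largest ratio of CV2. The genes of the paragraph on *Il6* and the 2 genes that differed between chips and sets of 4 were named after their values were seen where no list held them.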

Additional observations from a re-analysis of the deposited data

Results flagged for a closer look

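Of 621 genes whose wells did not overlap between the chips and whose libraries did not overlap between the sets of 4, 2 went opposite ways in the chips and in the sets. *Prmt1* (chr7:44975989-44986568), the main arginine methyltransferase gene, was at 160, 227 and 326 CPM by C1-RamDA-seq (lowest, median and highest well) and at 15, 52.9 and 110 CPM by SMART-Seq v4, a log2 fold of 2.10. In the sets of 4 it was at 131, 133, 152 and 153 CPM against 222, 224, 246 and 257 CPM, a log2 fold of -0.73 ± 0.134. *Gm43041* (chr5:59953511-59956140), an entry still to be experimentally classified, was at 518, 585 and 719 CPM by C1-RamDA-seq and at 1054, 1199 and 1345 CPM by SMART-Seq v4, a log2 fold of -1.02. In the sets of 4 it was at 823, 832, 833 and 836 CPM against 354, 371, 394 and 453 CPM, a log2 fold of 1.08 ± 0.094. Of its 25-base words, 69.8% lie in other genes on the opposite strand. The SMART-Seq v4 set was made off the C1 and the SMART-Seq v4 chip on it, and the difference between chips and sets was not tested.

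In the sets of 4, 7 of 34 groups of 4 libraries had 1 library far from the other 3 by Dixon's limit. In 3 of these the other 3 libraries were at 0, which puts any count beyond the limit. Of the 29 groups with fewer libraries at 0, 4 had such a library, where chance marks about 1 in 20. In the C1-RamDA-seq set, library 04 was high for *Rmrp* (503 CPM, the others 393 to 401), for *Rps12* (889 CPM, the others 571 to 611) and for *Hprt* (37.3 CPM, the others 27.7 to 28.6). In the SMART-Seq v4 set, library 03 held the only counts of *Rmrp* (0.303 CPM) and of *Hprt* (9.39 CPM), library 01 those of *Hist1h2bn* (5.11 CPM), and library 02 was high for *Vps13d* (22.3 CPM, the others 0.851 to 1.14).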

How the results depend on the processing

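Without a filter on low counts the called genes were 21054, with 15248 higher in C1-RamDA-seq, and past 2-fold 12680, with 10404 higher, since 33046 genes were then tested. Under the other alternatives (library size alone, RLE size factors, rRNA genes left out, wells CA04 and CG11 left out, thinning, DESeq2 and limma-voom) the calls stayed between 7339 and 7967, while the share higher in C1-RamDA-seq moved from 52% to 42.2% by library size, 63.5% by RLE, 63.4% by DESeq2 and 60.1% by limma-voom. On counts as deposited, a count of at least 5 gave 6639 genes of unequal detection and a count of at least 10 gave 6151. With 6 genes of rRNA sequence left out of the total, the difference in share turned positive for lincRNA genes (0.124 percentage points), other protein-coding genes (0.482), pseudogenes (0.159), replication-dependent histones (0.00369), ribosomal proteins (0.0454) and nonsense-mediated decay transcripts (0.0601). *Tpr* turned to -0.26 by library size and -0.0094 without the filter, *Gapdh* to 0.26 by RLE and 0.26 by DESeq2, and *Pou5f1* to 0.13 by RLE and 0.13 by DESeq2.

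Library numbers did not pair the samples: deviations of same-positioned wells correlated at -0.0392 to 0.0297, and those of same-numbered libraries of the sets at -0.000637 to 0.0157. With well position as a replicate block, 7849 of 9235 genes were called, 3670 past 2-fold, and the median log2 fold moved by 0.108, while the gap in genes per library was 3564.69. With a replicate block the sets of 4 gave 1032 calls and 284 past 2-fold, against 2451 and 1325 without. DESeq2 gave 3996 in the sets. Leaving out 1 library gave between 2053 and 3068 calls and between 1166 and 1836 past 2-fold. The causes of these changes were not tested. Depth limits the detection of rare RNAs, since no C1-RamDA-seq library held more than 725346 counts.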

Other observations

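Whole gene types differed in how often they were found, by the same Fisher's exact test over wells that found 48.8% of all genes in more C1-RamDA-seq wells and 4.19% in fewer. Of 1201 lincRNA genes tested, 707 were found in more C1-RamDA-seq wells and 54 in fewer, and of 1120 antisense genes 678 and 57. Of 1436 genes of the type TEC (still without experimental support), 1076 were found in more C1-RamDA-seq wells and 70 in fewer. Processed pseudogenes, which are retrotransposed copies of mRNAs, were less one-sided: of 2045 tested, 615 were found in more C1-RamDA-seq wells and 354 in fewer. By level, 169 processed pseudogenes passed the filter, of which 39 were called past 2-fold higher and 53 lower, against 20.7% and 14.2% of all genes. All of these entries can share reads with their parent genes or, without strand, with overlapping ones.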
